A study of Homo sapiens with 6 samples.

Results

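Keratin RNA was examined in 2 human colorectal cancer (CRC) cell lines through NAT10 RNA immunoprecipitation sequencing (RIP-seq) and acetylated RNA immunoprecipitation sequencing (acRIP-seq). The 10 keratin genes KRT8, KRT18, KRT19, KRT20, KRT7, KRT23, KRT80, KRT13, KRT17 and KRT6A were taken by symbol from the 58302 Ensembl genes of the RIP table, and all 10 were found. They were selected on their Input, RIP and peak values, KRT13 among them because it holds the highest ac4C peak shared by both lines, so their values are given as a description and carry no test. Of the listed ac4C peaks, 13 of 9536 in SW480, 24 of 13964 in DLD-1 and 19 of 15622 in the pooled list had one of these genes as host.

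SW480 and DLD-1 are epithelial lines derived from colorectal tumours, and in every group the cells were wild type and untreated. Each line gave 1 Input library of total RNA, 1 library of RNA recovered by an antibody to NAT10, an RNA acetyltransferase (RIP) and 1 library of RNA pulled down with an antibody against N4-acetylcytidine (ac4C), the base that NAT10 makes (acRIP). With 1 library in each of the 6 groups there were no replicates, so every difference compares libraries and the intervals given cover counting error only. The study set out to find transcripts that NAT10 binds and that carry ac4C in CRC cells.

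Keratins are the intermediate filament proteins of epithelia. A type I keratin pairs with a type II keratin, and filaments form only from such pairs. KRT8 (type II) with KRT18 or KRT19 (type I) makes up the filaments of simple epithelium, and KRT20 is a type I keratin of differentiated intestinal and gastric epithelium. KRT7 is a type II keratin of ductal and glandular epithelium. KRT13 belongs to the upper layers of moist stratified epithelium such as that of the oesophagus, and KRT17 and KRT6A are keratins of epithelial appendages and of activated or wounded epidermis. These filaments are anchored at desmosomes by plakin proteins.

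Whole reads were solved from the FPKM values for 23506 genes. They summed to 26245762 in RIP labelled SW480 and 21773924 in RIP labelled DLD-1, and to 11931422 and 11178713 in the Inputs in the same order. The smallest whole numbers that fit each gene were taken, so these sums are lower limits and not library sizes. RIP and Input libraries did not match by label. Of 87 protein-coding genes with at least 10 FPKM in an Input that differed at least 100-fold between the Inputs (pseudocount 0.1), 85 differed at least 10-fold between the RIP libraries in the opposite direction and 0 in the same direction. The mean absolute difference in log2(FPKM + 1) over 12668 protein-coding genes was 0.855 between RIP and Input both labelled SW480, and 0.559 between RIP labelled SW480 and Input labelled DLD-1. For RIP labelled DLD-1 it was 0.907 against the Input of its own label and 0.539 against the other. Over the 10 keratins the own-label and other-label differences were 1.96 and 0.448 for RIP labelled SW480, and 1.32 and 0.613 for RIP labelled DLD-1. Which label goes with which cells cannot be told from these values, so libraries are called by their labels, and RIP ratios are given over both Inputs. A further table deposited with the acRIP data holds its own Input columns for both lines. The labels name only 1 Input per line, so these columns were taken as repeat values of the same 2 samples, not as independent libraries.

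All 13 markers of colorectal epithelium were above 0 FPKM in at least 1 of the 4 libraries of the RIP table. The same held for all 10 markers of stratified squamous epithelium, so this count does not tell the 2 lists apart. EPCAM was at 95.0 FPKM in RIP labelled SW480, 324 in Input labelled SW480, 306 in RIP labelled DLD-1 and 127 in Input labelled DLD-1. CDX1, an intestinal transcription factor, reached only 0.623 FPKM, in Input labelled SW480, and was at 0 in the other 3 libraries. CEACAM5 and GPA33 were also at 0 in Input labelled DLD-1, and at 0.0822 and 0.217 FPKM in RIP labelled SW480. Summed markers of fibroblasts, leukocytes and endothelium stayed at or below 1.16 FPKM in every library. The 10 markers of stratified squamous epithelium summed to 108 FPKM in RIP labelled SW480, 7.05 in Input labelled SW480, 15.5 in RIP labelled DLD-1 and 126 in Input labelled DLD-1. KRT5, a basal-layer keratin, made up most of the higher sums, with 93.4 and 114 FPKM, whereas its usual partner KRT14 was at 0 in 3 libraries and 0.119 FPKM in RIP labelled DLD-1. The squamous regulator TP63 did not exceed 0.00688 FPKM and the envelope protein IVL did not exceed 0.11 FPKM.

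KRT20, the keratin of differentiated gut epithelium, was present in 1 Input and all but missing from the other. It measured 29.2 FPKM in Input labelled SW480 (741 reads) and 0.0426 FPKM in Input labelled DLD-1 (1 read). In the RIP libraries the order was turned round, with 0 reads in RIP labelled SW480 and 23.9 FPKM (1045 reads) in RIP labelled DLD-1. The Inputs differed 684-fold (95% counting interval 122 to 27065), and RIP labelled DLD-1 was at least 409.7-fold higher than RIP labelled SW480, taking 3 reads as the limit that a count of 0 allows. The acRIP table gave 20.5 FPKM for Input SW480 and 0.0501 FPKM for Input DLD-1, which is the order of the Inputs in the RIP table.

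KRT20 and KRT23 were the members whose RNA was on or off by library, and of these only KRT20 had a promoter in the sequence table used, which is shown here. The RefSeq sequence of GRCh38.p14, minus strand, covers the 250 bases before the start of the gene, chr17:40885243-40885492, and the capitals mark the letters CATAAA, which lie 29 bases before the start.

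KRT20 promoter: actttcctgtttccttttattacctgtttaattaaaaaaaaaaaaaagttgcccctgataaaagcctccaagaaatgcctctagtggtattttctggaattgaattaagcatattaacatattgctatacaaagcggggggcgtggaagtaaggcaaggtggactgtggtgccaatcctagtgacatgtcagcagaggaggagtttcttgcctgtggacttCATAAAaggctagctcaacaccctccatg

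CATAAA, which was searched for on both strands, is a core of the letters that CDX homeobox factors of the intestine bind, and it also resembles a TATA element. It was found 1 time here and in 9.64% of 35116 promoters of the same length, so the match is a description of the letters and not a shown site. The promoter of KRT8 held no match, and the other 8 members were not in the promoter table. CDX2, the gut homeobox factor, measured 4.31 FPKM in RIP labelled SW480, 33.4 in Input labelled SW480, 28.3 in RIP labelled DLD-1 and 7.0 in Input labelled DLD-1. CDX2 thus had its higher values in the same libraries as KRT20. CDH17, the liver-intestine cadherin, had the same high and low libraries with 2.54, 38.7, 61.7 and 1.85 FPKM. CDX2 and CDH17 were picked after their values were seen. Of the 13 colorectal markers, KRT20 among them, 12 passed the filter between the Inputs. Of these, 7 were called higher in Input labelled SW480 and 1 lower (15.1% and 20.9% of all genes tested were). Between the RIP libraries 12 passed, with 9 called lower in RIP labelled SW480 and 0 higher (9.6% and 14.4% of all genes tested were). Some markers did not follow KRT20 in every library. LGALS4 ran the other way, with 3.78, 0.936, 2.15 and 4.78 FPKM in the same order. VIL1 was higher in RIP labelled SW480 (1.24 FPKM) than in RIP labelled DLD-1 (0.687 FPKM). CDX1 was at 0 in RIP labelled DLD-1, where KRT20 was high. The protein-coding genes with the closest profile to KRT20 over 6 columns were SULT2B1, GALNT3 and CRYBG1, at distances of 0.49, 0.53 and 0.56 on the log2(FPKM + 1) scale.

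KRT23, a type I keratin with a restricted pattern, was the mirror image of KRT20. It had 0 reads in Input labelled SW480 and 32.1 FPKM (862 reads) in Input labelled DLD-1, a difference of at least 311-fold. RIP labelled SW480 held 50.8 FPKM (2993 reads) and RIP labelled DLD-1 0.120 FPKM (6 reads), a ratio of 424 (95% counting interval 195 to 1157). The Inputs of the acRIP table were at 0 and 28.5 FPKM. KRT20 and KRT23 together show that a library had RNA of one or of the other, and that each RIP library resembled the Input of the other label for both genes.

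KRT8, KRT18 and KRT19 were the most abundant members in all libraries. KRT8 measured 397 FPKM in RIP labelled SW480, 1642 in Input labelled SW480, 831 in RIP labelled DLD-1 and 813 in Input labelled DLD-1. KRT18 measured 624, 700.2, 1146 and 399.7 FPKM in the same order. KRT19, the small keratin without a tail domain, measured 184, 534, 404 and 302 FPKM. KRT8 ranked 12th and 23rd among the protein-coding genes of the Inputs labelled SW480 and DLD-1, and 60th and 37th in the RIP libraries. KRT18 held a similar place in all 4 libraries, with ranks 32 and 46 in the Inputs and 31 and 25 in the RIP libraries. The protein-coding genes closest to KRT18 in level were RPL7A, PABPC1 and ACTG1.

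KRT80, a type II keratin of several epithelia, measured 15 FPKM in RIP labelled SW480, 48.2 in Input labelled SW480, 36.6 in RIP labelled DLD-1 and 17.2 in Input labelled DLD-1. KRT7 was low, with 9.89, 1.91, 7.90 and 6.29 FPKM. KRT13 was lower still, with 3.44, 1.16, 3.87 and 2.62 FPKM, which rested on 187, 31, 179 and 65 reads. KRT6A did not exceed 0.497 FPKM (17 reads) in the RIP table and had 0 reads in Input labelled SW480. KRT17 was listed at 0.0746 FPKM in Input labelled SW480 and at 0 in the other 3 libraries, and its reads could not be solved from a single value. The 2 simple-epithelium keratins KRT8 and KRT18 thus stood far above the stratified-epithelium keratins KRT13, KRT17 and KRT6A in every library.

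**Figure D1:**
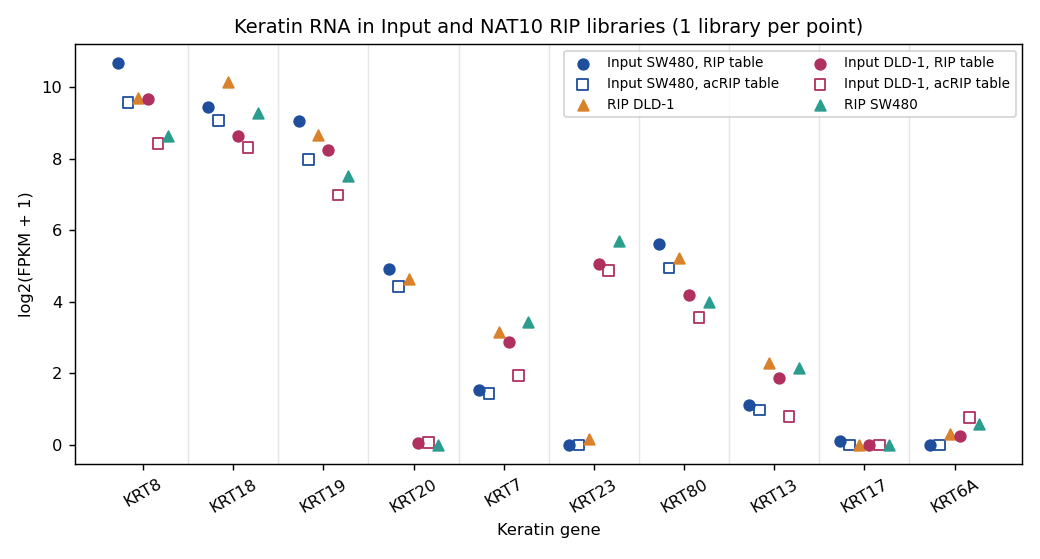
Level of the 10 keratin genes as log2(FPKM + 1), with 1 point per library: filled circles are Inputs of the RIP table, open squares Inputs of the acRIP table and triangles RIP libraries. KRT20 is near 0 in Input DLD-1 and RIP SW480, KRT23 is near 0 in Input SW480 and RIP DLD-1, and KRT17 stays near 0 in all 6 columns.

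Input libraries were compared between the lines as the labels give them, over the 17987 genes with at least 1 FPKM in either Input. Ratios are log2((SW480 + 1) / (DLD-1 + 1)), which understates the change of low genes, and a gene was called at 2-fold or more. Of the 10 keratins, 8 passed the filter, and 3 were called higher in SW480 (15.1% of all genes tested were) and 2 higher in DLD-1 (20.9% of all genes tested were). The 3 higher in the Input labelled SW480 were KRT20 (log2 ratio 4.86), KRT80 (1.44) and KRT8 (1.01). KRT18 (0.81) and KRT19 (0.82) leaned the same way below 2-fold. The 2 higher in the Input labelled DLD-1 were KRT23 (-5.05) and KRT7 (-1.32), and KRT13 had a ratio of -0.75. In these bulk libraries fewer cells with a keratin and less of it per cell cannot be told apart.

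The Input columns of the acRIP table gave log2 ratios of 4.36 for KRT20, 1.38 for KRT80, 1.14 for KRT8, 0.77 for KRT18, 0.99 for KRT19 and -4.88 for KRT23. Of 7 keratins that passed there, 3 were called higher in SW480 (15.8% of 17417 genes were) and KRT23 was called higher in DLD-1 (20% of all genes were). KRT7 fell short of 2-fold (-0.50), and KRT13 had a ratio of 0.19 from levels of 0.967 and 0.730 FPKM. For the simple-epithelium keratins, KRT20, KRT23 and KRT80, then, both tables had the same order of these 2 Input samples, and for KRT7 and KRT13 they differed in the call or the sign.

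Between the RIP libraries, 8 keratins passed the filter. KRT23 was called higher in RIP labelled SW480 (14.4% of 15143 genes tested were), with a log2 ratio of 5.53. KRT8 (-1.06), KRT19 (-1.13), KRT80 (-1.23) and KRT20 (-4.64) were called lower in it (9.60% of all genes tested were). KRT18 (-0.87), KRT13 (-0.13) and KRT7 (0.29) were within 2-fold. For KRT8, KRT18, KRT19, KRT80, KRT20, KRT23 and KRT7, the sign was opposite to that between the Inputs.

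The question put by RIP-seq is which RNAs are recovered with NAT10 beyond their level in Input. Over the Input of the same label, 6 of the 10 keratins passed the filter of at least 1 FPKM in both Inputs. In the pair labelled SW480, KRT7 (log2 ratio 1.90, counting SE 0.15) and KRT13 (1.04, SE 0.16) were called above Input (15.6% of 12324 genes were). KRT8 (-2.05), KRT80 (-1.62) and KRT19 (-1.53) were called below Input (16% of all genes were), and KRT18 was near Input (-0.16). In the pair labelled DLD-1, KRT18 (1.52) and KRT80 (1.05) were called above Input (15.1% of all genes were) and 0 of the 6 below it (19.2% of all genes were). KRT19 (0.42), KRT13 (0.43), KRT7 (0.29) and KRT8 (0.03) were within 2-fold there. KRT20 and KRT23 failed the filter, with log2 ratios of -4.92 and 5.70 in the pair labelled SW480 and 4.58 and -4.89 in the pair labelled DLD-1. Both same-label pairs thus gave a different list of called keratins, and KRT80 was below Input in one and above it in the other.

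When each RIP library was set over the Input of the opposite label, both gave closer values for most keratins. KRT8 had log2 ratios of -1.03 for RIP labelled SW480 and -0.98 for RIP labelled DLD-1. KRT18 had 0.64 and 0.71, KRT19 -0.71 and -0.40, and KRT80 -0.19 and -0.39. KRT20, with ratios of -0.06 and -0.28, and KRT23, with 0.65 and 0.16, were then also within 2-fold of Input. KRT13 had 0.29 and 1.18, and KRT7 had 0.58 and 1.61, the widest gap between the pairings. Among the 6 keratins that passed the filter, 0 were called above Input for RIP labelled SW480 (9.24% of all genes were) and KRT8 was called below (11.7% of all genes were). For RIP labelled DLD-1, KRT7 and KRT13 were called above (9.36% of all genes were) and 0 below (11.8% of all genes were). All 6 had the same sign in both of these pairings.

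**Figure D2:**
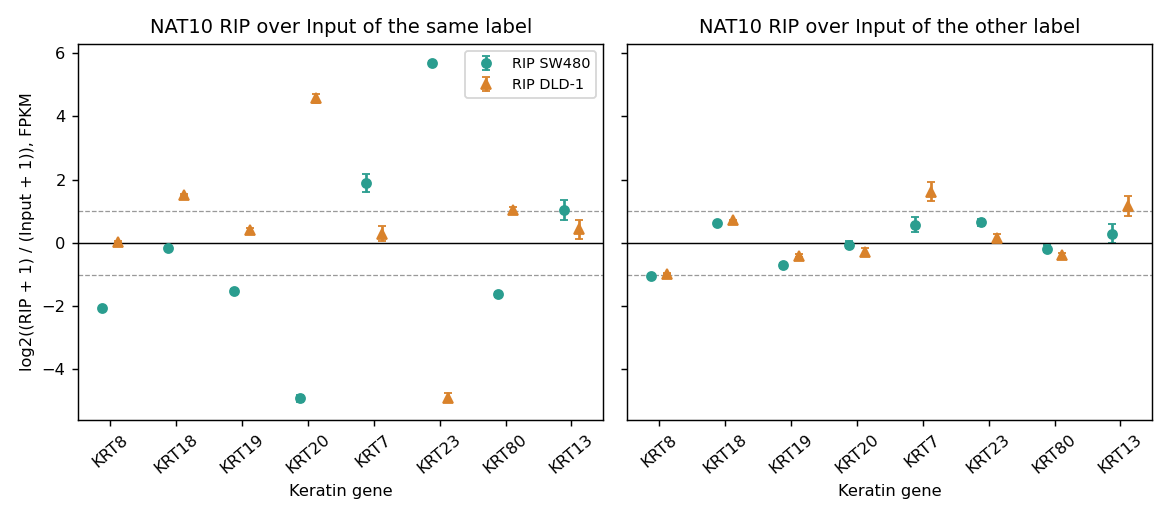
NAT10 RIP over Input as log2((RIP FPKM + 1) / (Input FPKM + 1)) for 8 keratins, over the Input of the same label (left) and of the other label (right); error bars are 95% counting intervals and dashed lines mark 2-fold. KRT20 and KRT23 lie beyond 4 log2 units on the left and within 0.65 of 0 on the right.

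A quantity that needs no pairing of libraries is the ratio of keratins within each library, which was picked after its values were seen. KRT8 over KRT18 was 2.35 in Input labelled SW480 (95% counting interval 2.31 to 2.38) and 2.03 in Input labelled DLD-1 (1.99 to 2.08). In RIP labelled SW480 it was 0.636 (0.627 to 0.645) and in RIP labelled DLD-1 0.726 (0.717 to 0.734). Both RIP libraries thus held less KRT8 than KRT18 by FPKM and both Inputs held more, with no overlap whichever label is right. KRT18 over KRT19 was 1.31 and 1.32 in the Inputs labelled SW480 and DLD-1, and 3.39 and 2.84 in the RIP libraries. KRT8 over KRT19 varied less, with 3.08 and 2.69 in the Inputs and 2.16 and 2.06 in the RIP libraries. KRT18 was therefore the member of this trio that stood higher against both others in RIP. The Inputs of the acRIP table, taken as repeat values of the same 2 samples, gave 1.41 and 1.09 for KRT8 over KRT18, also above both RIP values. They gave 2.15 and 2.52 for KRT18 over KRT19, between the Inputs of the RIP table and the RIP libraries, and 3.03 and 2.73 for KRT8 over KRT19. For KRT8 over KRT18, the acRIP-table values lay outside the counting intervals of the RIP-table Inputs. Those intervals therefore understate how far Input values of 1 sample can differ.

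**Figure D3:**
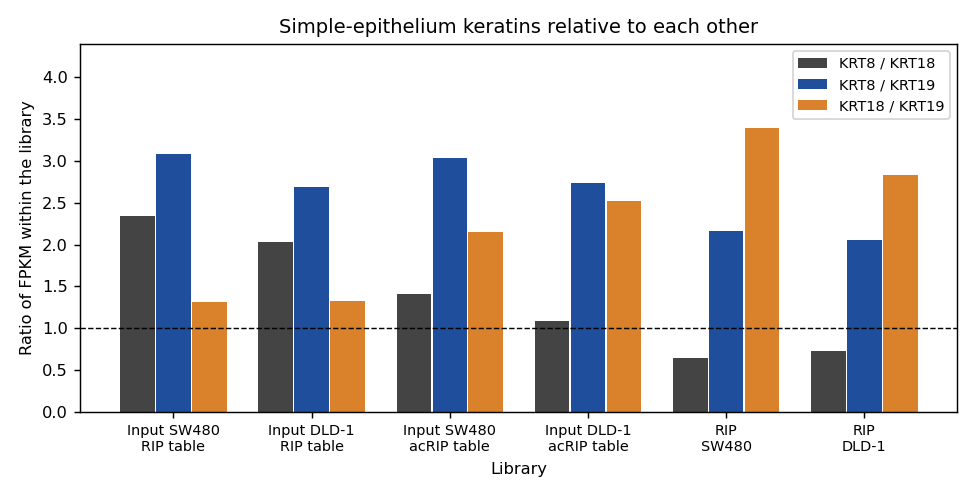
Ratios of FPKM between KRT8, KRT18 and KRT19 within each of 6 columns; the dashed line marks equal FPKM. KRT8 over KRT18 is above 1 in the 4 Input columns and below 1 in both RIP libraries, at 0.636 and 0.726.

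Processed copies of KRT8 and KRT18 are scattered over the genome and can take or give reads. The table lists 50 KRT8 and 67 KRT18 pseudogenes by symbol. The KRT8 pseudogenes summed to between 1.98% and 4.02% of KRT8 itself in the 4 libraries and the KRT18 pseudogenes to between 0.580% and 2.83% of KRT18. The part of reads shared with these copies in the ratios above was not tested. The most abundant pseudogenes of keratins were KRT8P3, KRT8P46 and KRT8P12. KRT8 and KRT18 also overlap each other on opposite strands over 1006 bases by their RefSeq spans, and whether the counting used strand is not given in the sources used here.

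acRIP-seq asks where RNA fragments carry ac4C. Of the 10 keratins, 7 held at least 1 peak in SW480 and 8 in DLD-1. Of the 6 keratins with an acRIP-table Input of at least 1 FPKM, 5 held a peak in SW480 and 5 in DLD-1, and of all genes at that level 39.5% and 41.7% did. These shares cover genes of all types. Among protein-coding genes at 10 to 50 FPKM they were 66.2% and 72.2%, and KRT8, KRT18 and KRT19 stood above that range. Of the 4 keratins below 1 FPKM, 2 held a peak in SW480 and 3 in DLD-1 (8.02% and 7.23% of protein-coding genes below 1 FPKM did). The listed folds are over the Input of the same label, and whether acRIP and Input labels match was not tested, so each fold and rank holds for the libraries as labelled. The exceptions in both lines were KRT20 and KRT23, and KRT6A held a peak only in the DLD-1 list. KRT20, at 20.5 FPKM in the acRIP-table Input of SW480, and KRT23, at 28.5 FPKM in that of DLD-1, lie in a range of 10 to 50 FPKM where 66.2% and 72.2% of protein-coding genes held a peak. The 2 keratins that marked the libraries by presence or absence were therefore those on which no peak was listed.

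KRT13 held 2 peaks in each line. The first lay on chr17:41501011-41501575 (GRCh38, minus strand) and began 30 bases from the 3′ end of the gene, with a fold over Input of 13100 in SW480, the highest of all 9536 peaks. In DLD-1 the peak on chr17:41501011-41501546 had a fold of 2950, the second highest of 13964. The other KRT13 peak covered the same 6 blocks between 41502391 and 41504224 in both lines, with folds of 2340 and 341. All of this was measured over an Input of 0.967 FPKM in SW480 and 0.730 FPKM in DLD-1. A gene on the opposite strand, AC019349.1, was listed as host of peaks on the same bases.

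KRT7 held 4 peaks in each line, and 3 of the 4 had the same start and end in both. They ran through the coding region towards the 3′ side of the gene on chr12 between 52233414 and 52251796, plus strand. Folds were 1400, 613, 2990 and 10200 in SW480 and 269, 312, 200 and 881 in DLD-1, in order along the gene. The peak nearest the 3′ end thus had the highest fold in both lines. One KRT7 peak shared bases with KRT7-AS on the opposite strand.

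KRT17 and KRT6A carried peaks on very little Input. KRT17 was at 0 in both Input columns of the acRIP table and held a peak with a fold of 249 in SW480 and of 21.2 in DLD-1, and among protein-coding genes listed at 0 there, 5.41% and 5.12% held a peak. KRT6A, at 0.695 FPKM in the DLD-1 Input, held a peak of 2 blocks with a fold of 109. Among protein-coding genes below 1 FPKM, 8.02% held a peak in SW480 and 7.23% in DLD-1. A fold over an Input near 0 rests on few Input reads, and the depth of the acRIP libraries is unknown. KRT17 also resembles KRT14 and KRT16, and KRT6A resembles KRT6B and KRT6C, so reads may have been shared within these groups.

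The abundant keratins carried more moderate folds. KRT8 held 2 peaks in SW480 (folds 34.3 and 4.14) and 5 in DLD-1 (2.84 to 116). KRT18 held 2 in SW480 (282 and 11.2) and 6 in DLD-1 (3.29 to 88.9), one of which reached into the bases that the spans of KRT8 and KRT18 share. KRT19 held 1 peak in each line, with folds of 384 and 225, and KRT80 held 1 in SW480 (18.7) and 4 in DLD-1 (8.85 to 37). By the class listed with the peaks, KRT80 was the only member with peaks in the 3′ UTR. That class is not a full guide to position. Peaks of KRT8, KRT18, KRT19 and KRT13 listed as exon or CDS came within 100 bases of the 3′ end in both lines.

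**Figure D4:**
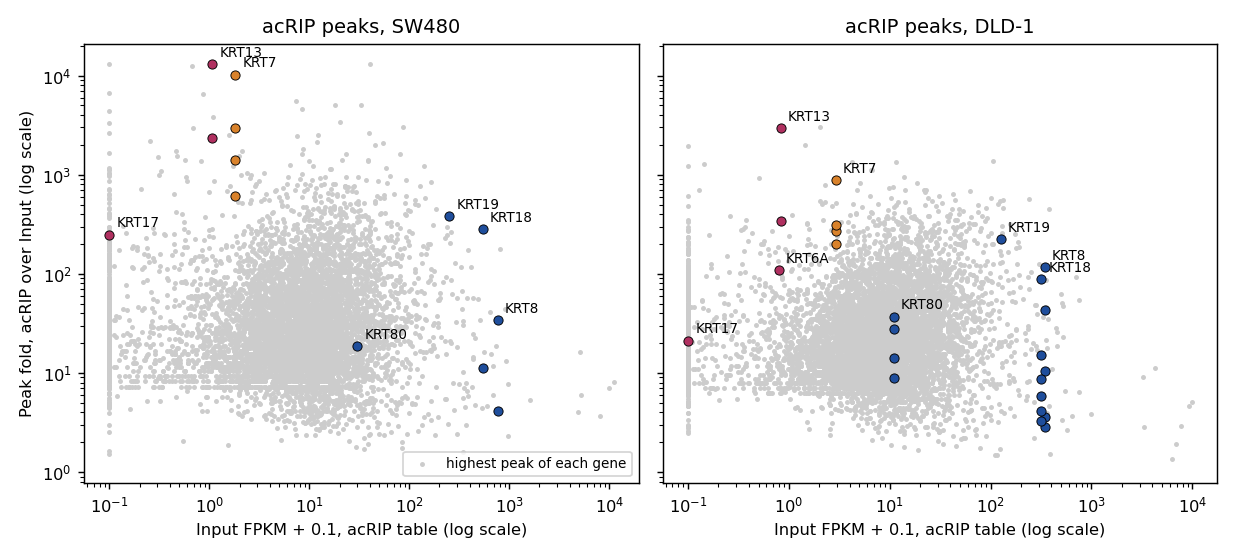
Fold of each keratin peak against the Input level of its gene in the acRIP table plus 0.1 FPKM, both on log axes, for SW480 (left) and DLD-1 (right); grey points are the highest peak of each gene, blue marks KRT8, KRT18, KRT19 and KRT80, orange KRT7 and red KRT13, KRT17 and KRT6A. KRT13 and KRT7 reach 13100 and 10200 in SW480 at Inputs of 0.967 and 1.71 FPKM.

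Peaks with a fold of at least 1000 numbered 62 in SW480 and 11 in DLD-1. KRT13 and KRT7 held 5 of the 62, and KRT13 held 1 of the 11. Among protein-coding genes with Input above 0 and below 5 FPKM, 18 of 6676 in SW480 (0.270%) and 4 of 7159 in DLD-1 (0.0559%) had such a peak. Where Input was at least 100 FPKM, 1 of 203 (0.493%) and 1 of 184 (0.543%) did. The shares at high Input thus rest on 1 gene each. The median fold of the keratin peaks was 384 in SW480, against 19.5 over all peaks, and 32.3 in DLD-1, against 14.6. These folds were part of how the genes were chosen.

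Keratin peaks often stood at the end of the transcript. In SW480, 5 of the 7 genes with a peak (KRT8, KRT18, KRT19, KRT13 and KRT17) had one that came within 100 bases of the RefSeq 3′ end, and in each of the 5 it was the peak with the highest fold. In DLD-1, 5 of 8 had one so placed (KRT8, KRT18, KRT19, KRT80 and KRT13), and it was the highest in 4, the exception being KRT8, whose highest peak lay 4688 bases from the end. The highest peak of the gene was so placed in 27.2% of all genes with a peak in SW480 and 17.2% in DLD-1. Of all genes with a peak, 30.4% had at least 1 such peak in SW480 and 22.5% in DLD-1. This window was set after the positions were seen. KRT19 and KRT17 held only 1 peak each in SW480, as KRT19 did in DLD-1, so that peak was the highest by default. The class given to keratin peaks was mostly exon, for 8 of 13 in SW480 and 15 of 24 in DLD-1, against 21.5% and 18.4% of all peaks.

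**Figure D5:**
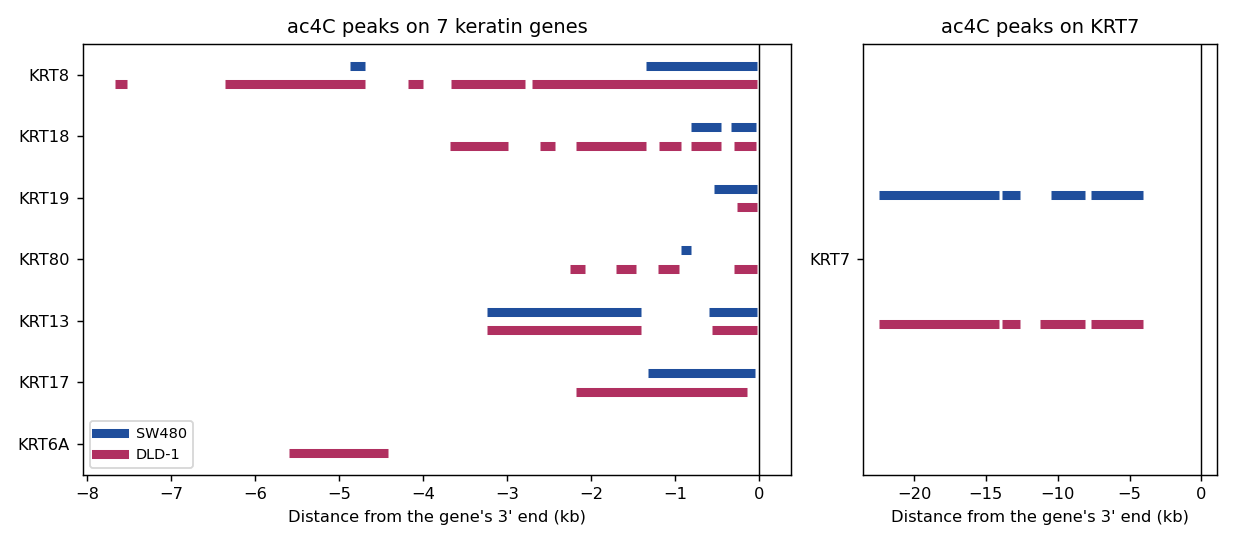
Extent of every ac4C peak on 8 keratin genes by distance from the 3′ end of the RefSeq gene span (kb, at 0), with introns inside a peak drawn as part of it, for SW480 (blue) and DLD-1 (red). KRT13 and KRT7 have nearly the same windows in both lines, while KRT8, KRT18 and KRT80 have more windows in DLD-1.

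Of the 13 keratin peaks in SW480, 12 overlapped a DLD-1 peak by at least 1 base on the same strand (92.3%, against 55.3% of all SW480 peaks). Of the 24 keratin peaks in DLD-1, 12 overlapped an SW480 peak (50%, against 36.5% of all DLD-1 peaks). With an overlap of 50% of each peak the counts were 9 and 9 (against 36.2% and 24.7% of all peaks). The 1 SW480 peak without a partner was that of KRT80. The 12 DLD-1 peaks without a partner lay on KRT80 (4), KRT18 (4), KRT8 (3) and KRT6A (1). KRT13 was chosen for a peak shared by both lines, and keratin peaks had a longer median length than all peaks. The shares of overlapping peaks are therefore a description only.

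The peak lists count sites of a pattern of 12 bases with 4 Cs, 1 every 3 bases, as their column header names it. Keratin peaks held 56 sites in 5806 bases in SW480 and 80 in 9372 bases in DLD-1, or 9.65 and 8.54 sites per kb, against 5.13 and 4.64 over all peaks. At least 1 site stood in 12 of 13 and 23 of 24 keratin peaks, against 56.2% and 55.1% of all peaks. The highest peak of KRT13 held 7 sites in each line, and the KRT7 peak nearest the 3′ end also held 7. The peaks without a site were that of KRT80 in SW480 and 1 of KRT18 in DLD-1. Longer peaks can hold more sites, and the keratin peaks had median lengths of 361 and 271 bases, against 210 and 211 bases over all peaks.

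The rest of the keratin family was mostly silent. Of 45 other protein-coding keratins, 16 were at 0 in all 6 columns and 13 exceeded 1 FPKM in any. KRT5 (93.4 FPKM in RIP labelled SW480, 0.270 in Input labelled SW480, 0.816 in RIP labelled DLD-1 and 114 in Input labelled DLD-1) followed the order of KRT23. KRT81, a hair keratin, did so too with 47.7, 0.851, 0.494 and 20.5 FPKM, and so did KRT86 with 9.86, 2.5, 0.376 and 19.2 FPKM. KRT10 was even across the libraries, at 5.41 to 7.25 FPKM. Peaks were listed on KRT5, KRT15 and KRT10 in both lines and on KRT16 and KRT4 in SW480 alone. KRT5 had folds of up to 995 in SW480 and 106 in DLD-1, at acRIP-table Inputs of 0.212 and 54.7 FPKM. KRT15 had folds of up to 2490 and 269, at Inputs of 1.48 and 3.78 FPKM.

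Keratin filaments attach to desmosomes, and 11 of 17 desmosome and plakin genes passed the RIP filter. For SW480 labels, 7 of them were called below Input and 0 above (16% and 15.6% of all genes were). For DLD-1 labels, 5 were called above and 1 below (15.1% and 19.2% of all genes). With the Input labels exchanged, 1 was called above and 2 below for RIP labelled SW480 (9.24% and 11.7% of all genes), and 0 above and 3 below for RIP labelled DLD-1 (9.36% and 11.8%). JUP (plakoglobin) had log2 ratios of -1.92 and 1.51 in the pairs labelled SW480 and DLD-1, PKP3 (plakophilin) -0.27 and 1.54, and DSG2 (desmoglein) -0.02 and 2.09. The plakin PPL (periplakin) had ratios of -1.64 and -0.69. Over the Input of the opposite label, for RIP labelled SW480 and DLD-1 in turn, JUP had ratios of -0.14 and -0.27, PKP3 0.81 and 0.45, DSG2 1.10 and 0.97, and PPL -1.16 and -1.17. The large ratios of JUP with opposite signs were thus seen only with the Inputs of the same label.

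Of 13 other intermediate filament genes, 3 passed the RIP filter, and these were the nuclear lamins LMNA, LMNB1 and LMNB2. They were called below Input in the pair labelled SW480 (log2 ratios -1.10, -1.27 and -1.23) and were within 2-fold in the pair labelled DLD-1 (0.52, 0.40 and -0.61). Over the Input of the opposite label, none of the 3 was called for RIP labelled SW480 (-0.28, -0.14 and -0.69), and LMNB2 was called below for RIP labelled DLD-1 (-0.29, -0.73 and -1.15). Vimentin (VIM), the filament of mesenchymal cells, measured 128 FPKM in RIP labelled SW480, 0.0770 in Input labelled SW480, 0.804 in RIP labelled DLD-1 and 11.1 in Input labelled DLD-1. VIM was high where KRT23 was high and low where KRT20 was high. NES (nestin) had the same high and low libraries at 5.37, 0.0615, 0.0143 and 6.41 FPKM. Over the Input of the opposite label, NES had log2 ratios of -0.22 for RIP labelled SW480 and -0.07 for RIP labelled DLD-1. VIM had 3.41 and 0.74, so unlike KRT20 and KRT23 it was not within 2-fold for RIP labelled SW480. In the acRIP table, VIM in Input DLD-1 was at 51.2 FPKM.

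Of 25 stratified and squamous genes outside the keratins, 9 held a peak in SW480 and 7 in DLD-1. Among the 17 of them below 1 FPKM in the acRIP-table Input of SW480, 5 held a peak (8.02% of all protein-coding genes below 1 FPKM did), and among the 15 in DLD-1, 3 did (7.23%). In RIP over Input, 9 of the 25 passed the filter, and in the same-label pairs the largest ratios among these were those of CNFN (cornifelin, -0.78 and -3.10 in the pairs labelled SW480 and DLD-1) and ECM1 (1.58 and -0.31). With the opposite labels, CNFN had -2.22 and -1.66 and ECM1 0.59 and 0.67, within 2-fold, while S100A2 reached 1.23 for RIP labelled SW480. S100A2, a calcium-binding protein of basal epithelium, had folds of up to 6580 and 2010 in SW480 and DLD-1 at Inputs of 0.754 and 1.36 FPKM. S100A9, a calcium-binding protein of squamous epithelium and myeloid cells, had folds of 6710 and 1230 with both Inputs listed at 0. The list was drawn up with the peaks of KRT13 already known. S100A2 and S100A9 thus paired folds above 1000 with Inputs below 2 FPKM, as KRT13 did. Other listed genes with a peak at an Input below 1 FPKM had much lower folds. In SW480 and DLD-1, CSTA had up to 65.6 and 94.4 and TP63 up to 23.9 and 18.1. FLG had 8.33 in SW480 and no peak in DLD-1.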

How the data were processed

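Gene levels came from a deposited RIP table in FPKM (fragments per kilobase, scaled by the authors to library size) with RIP and Input columns for each line, and a second table whose Input columns were read here as FPKM although the file does not name the unit. The submitters' processing notes name cutadapt 2.5 and HISAT2 2.1.0, and the counting tool and peak caller are not given in the sources used here. The authors also deposited ac4C peak lists for SW480, for DLD-1 and for the pooled libraries, with a p-value, a score that is the base-10 logarithm of the p-value or of the false discovery rate, and the fold (ratio) of acRIP over Input in each peak. Coordinates are GRCh38, and starts were moved by 1 base to count from 1. Of the deposited columns, 3 ratios of RIP to Input made by the authors were not used.

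Samples were grouped by their titles. With 1 library per group no test was run, and differences were described as log2((a + 1) / (b + 1)) of FPKM, with a pseudocount of 1, called at 2-fold. Genes needed at least 1 FPKM in both Inputs for RIP over Input, or in either library for the other comparisons. Whole reads were recovered for 23506 of 23515 genes above 0 in at least 2 columns (within 0.001 of a whole number), by a solver that was tested on simulated data. Counting SE, 95% intervals and the floor of 3 reads rest on these reads, and since PCR copies are not independent molecules they cover counting error only. Peaks overlapped if they shared at least 1 base on the same strand, block by block. The named genes were all 10 keratins, other keratins at 10 FPKM or with a peak, the 3 nearest profiles (Euclidean distance over 6 columns of log2(FPKM + 1)), which are not reported here for KRT8 and KRT19, and up to 4 members of each partner list by the largest ratio. The 10 keratins and all lists were chosen with earlier results of these data known. S100A2 and S100A9, CDX2, CDH17 and the lamins were named after their values were seen. Alternatives were a pseudocount of 0.1, no filter, centring on the protein-coding median, the Input of the other label, the acRIP-table Inputs, a false discovery rate below 0.05 for peaks and an overlap of 50%. Python 3.11.15, numpy 2.4.6, pandas 2.3.3 and scipy 1.17.1 were used, with promoters and gene spans from RefSeq (GRCh38.p14).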

Additional observations from a re-analysis of the deposited data

Results flagged for a closer look

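For 6 keratins, the log2 ratio of RIP over Input changed sign between the pairs labelled SW480 and DLD-1. The difference, SW480 minus DLD-1, was -2.08 for KRT8, -1.68 for KRT18, -1.95 for KRT19, -2.67 for KRT80, -9.49 for KRT20 and 10.58 for KRT23. With 1 library per group these differences were not tested. KRT8 was close to Input in the pair labelled DLD-1 (0.03) and KRT18 in the pair labelled SW480 (-0.16). Over the Input of the opposite label, KRT8, KRT18, KRT19, KRT80, KRT20 and KRT23 each had 1 sign for both RIP libraries.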

How the results depend on the processing

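No paired analysis was possible because each group held 1 library, and for the same reason no library could be left out. In the pair labelled SW480, the 2 keratins above Input became 1 after centring on the protein-coding median, 0 over the opposite-label Input and 1 over the scaled acRIP-table Input. The 3 below Input became 1 over the opposite-label Input and 0 over the opposite-label Input of the acRIP table, an alternative chosen after seeing the data. In the pair labelled DLD-1, the 2 above Input became 1 after centring and 4 over the scaled acRIP-table Input, and the 0 below became 1 without a filter. Between Inputs, the 2 keratins higher in DLD-1 became 1 in the acRIP table. The other 35 recomputed counts stayed within 1.5 times their value. KRT80 over Input in the pair labelled DLD-1 changed sign, to -0.39 over the opposite-label Input and -0.26 over that of the acRIP table. Values below 2-fold also changed sign. In the pair labelled DLD-1, KRT19 went to -0.40 and KRT8 to -0.98 over the opposite-label Input, and KRT8 to -0.03 after centring. In the pair labelled SW480, KRT18 went to 0.64. Between Inputs, KRT13 went to 0.19 in the acRIP table. Of 100 recomputed values of single genes, 9 changed sign in all, 39 moved by less than their 95% counting interval and the others by more, and the cause was not tested. Low Input reads limit KRT13, KRT17, KRT6A and KRT7.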

Other observations

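The profiles closest to that of KRT13 at this level were those of genes other than keratins. AP5M1, a subunit of an adaptor complex, was nearest to KRT13 over 6 columns (distance 0.36 on the log2(FPKM + 1) scale), followed by ZDHHC13 (0.53) and TMEM182 (0.53), all at a few FPKM in each library.

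Where a keratin peak of SW480 and one of DLD-1 overlapped and both were a single block, all 14 pattern sites in the shared bases were listed at the same base in both lists, leaving out 20 bases at the edges. Where a peak was spliced, 21 of 24 were (87.5%). Over all genes these shares were 2949 of 2949 and 1617 of 2031 (79.6%). The listed site positions in spliced peaks therefore differed between the lists, whereas those in unspliced peaks did not.

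The simple-epithelium keratins made up 0.829% of protein-coding FPKM in Input labelled SW480, 0.449% in Input labelled DLD-1, 0.355% in RIP labelled SW480 and 0.659% in RIP labelled DLD-1.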
